A study of Mus musculus with 6 samples.

Results

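Visceral endoderm is the absorptive and secretory epithelium that surrounds the early mouse embryo. On its outer face the receptors cubilin and megalin take up maternal proteins, lipids and vitamins into a dense endocytic system, and the same cells secrete serum proteins and lipoproteins before the liver forms. In cultures of mouse embryonic stem cells, a few cells can turn on primitive endoderm genes, from which visceral and parietal endoderm derive. The 10 genes described here encode the uptake machinery (Cubn, Amn, Lrp2 and Dab2), a granule proteoglycan (Srgn), a hormone receptor (Pth1r) and secreted products (Ttr, Afp, Apob and Apoa1). They were taken as every probe set annotated to exactly 1 of these symbols. This gave all 10 genes of 18193 named genes on the array, read on 27 of 45101 probe sets.

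RNA came from R1 mouse embryonic stem cells, a line of (129X1 x 129S1)F1 origin, either without functional Sirt1 (Sirt1-/-, 3 samples, here KO) or with it (Sirt1+/+, 3 samples, here WT). Sirt1 encodes an NAD-dependent protein deacetylase. Cells of either genotype were kept on gelatin without a feeder layer named in the labels, in serum medium with leukaemia inhibitory factor, which sustains self-renewal. Each sample was hybridised to 1 Affymetrix 3' array, and levels are log2 values after robust multi-array averaging (RMA), so a difference of 1 is a 2-fold change. The comparison asks how these transcripts differ between cells without and with Sirt1. The labels give 1 source name per genotype, so what Sirt1 loss does and what else sets the KO source off from the WT source cannot be told apart. Whether the 3 samples of a genotype were separate cultures is not stated, so the p-values cover the spread among these samples alone, and that may be technical.

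Overall brightness was close on all arrays, with medians over all probe sets of 4.51 to 4.56 in KO and 4.53 to 4.57 in WT. Sirt1 averaged 8.05 ± 0.14 in KO and 10.16 ± 0.06 in WT (SD, n = 3 each). All 12 pluripotent cell markers were bright in the labelled stem cells, the dimmest of them, Esrrb, at percentile 89.4 of all genes by mean level. Pou5f1 averaged 12.39 ± 0.02 in KO and 12.29 ± 0.04 in WT (SD, n = 3 each). A guide to the level of unexpressed genes came from 70 olfactory and vomeronasal receptor genes, whose median level was 2.94 and whose 95th percentile was 4.08. They are called chemosensory receptors below, and the highest of them read 5.84.

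The uptake genes and Srgn and Pth1r were lower in KO cells, whereas none of the 4 secreted-product genes passed the test. Of the 10 genes, 6 were lower in KO at an adjusted p under 0.05 (limma, with Benjamini-Hochberg adjustment over all genes), beside 17.5% of all 18193 genes. None of the 10 was higher in limma, also at an unadjusted p under 0.05 (0 genes), beside 12.5% of all genes at the adjusted threshold. At least 2-fold lower were 5 of the 10, beside 1.43% of all genes. The median log2 change was -0.93 over the 10 genes and -0.01 over all genes. The 10 genes were chosen with earlier results of these data known. Their counts, here and below, are therefore descriptions beside the shares of all genes and not a test. These RNAs were measured in whole cultures, so fewer cells of a type and less RNA per cell cannot be told apart.

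**Figure D1:**
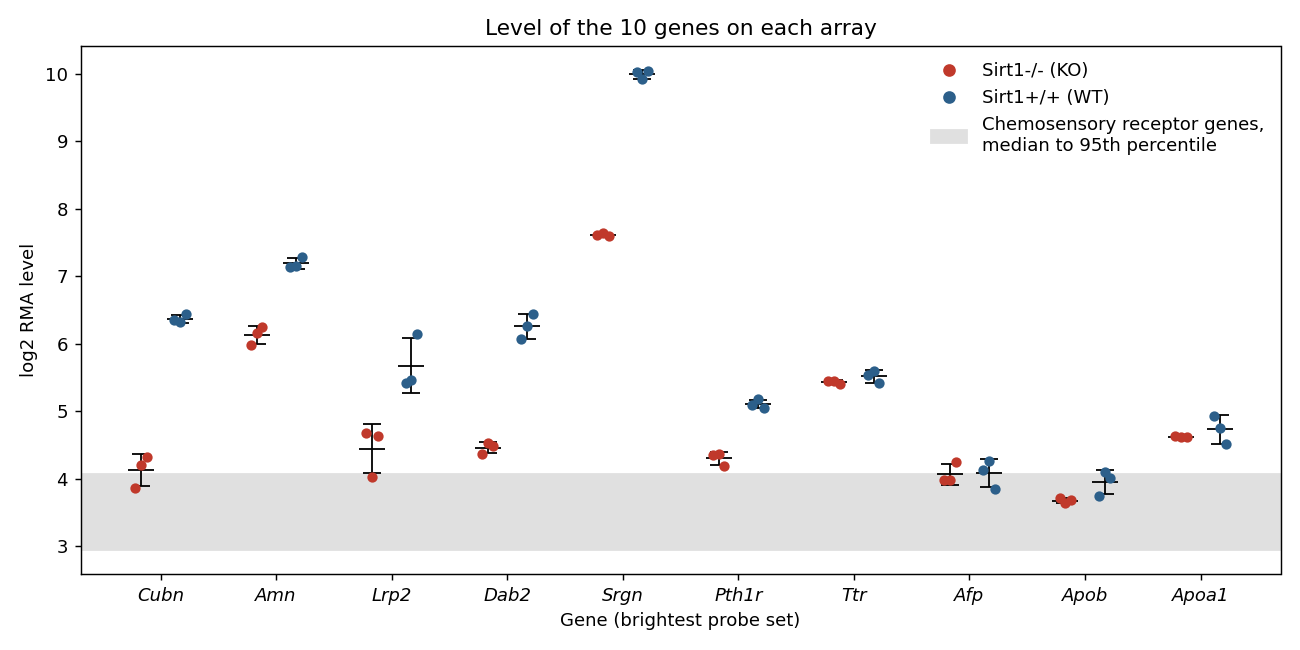
Level of the 10 genes on their brightest probe set, as log2 RMA values, in 3 Sirt1-/- (KO) and 3 Sirt1+/+ (WT) arrays. Points are arrays, bars are mean ± SD, and the grey band spans the median (2.94) to the 95th percentile (4.08) of chemosensory receptor genes. The KO points of Cubn, Amn, Lrp2, Dab2, Srgn, Pth1r and Apob lie wholly below the WT points, while those of Ttr, Afp and Apoa1 overlap them.

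Cubn encodes cubilin, a large peripheral receptor that binds intrinsic factor with vitamin B12, albumin and the apolipoprotein of high-density lipoprotein. On its brightest probe set (1452270_s_at, gene on chromosome 2) it read 3.87, 4.20 and 4.33 in the KO arrays and 6.36, 6.32 and 6.44 in the WT arrays. The closest KO and WT arrays were 2.00 units apart. The mean was 4.13 ± 0.24 in KO and 6.37 ± 0.06 in WT (SD, n = 3 each). KO minus WT was -2.24 log2 units with a standard error (SE) of 0.12, a 4.72-fold lower level (adjusted p = 8.60e-05 in limma). The KO mean lies next to the 95th percentile of the chemosensory receptors, where background limits a measured fold. Another Cubn probe set (1426990_at) read 3.32, 3.43 and 3.44 in KO and 4.89, 4.45 and 4.65 in WT, a log2 change of -1.27. It also passed when all probe sets were tested (adjusted p = 0.000589 in limma), again with no overlap between genotypes. Names ending in _s_at or _x_at mark probe sets that may detect more than 1 transcript, so the brighter probe set alone does not identify a single RNA.

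Amn encodes amnionless, the membrane-spanning partner that carries cubilin to the cell surface. Its 1 probe set (1417920_at, gene on chromosome 12) read 5.98, 6.17 and 6.25 in KO and 7.14, 7.15 and 7.29 in WT. The groups did not overlap, and all 6 values stayed above the whole chemosensory range. The mean was 6.13 ± 0.14 in KO and 7.19 ± 0.08 in WT (SD, n = 3 each). KO minus WT was -1.06 log2 units with a standard error (SE) of 0.08, a 2.09-fold lower level (adjusted p = 0.000299 in limma).

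Lrp2 encodes megalin, a giant receptor of the low-density lipoprotein (LDL) receptor family that works with cubilin. On its brightest probe set (1427133_s_at, gene on chromosome 2) it read 4.68, 4.03 and 4.63 in KO and 5.42, 5.46 and 6.14 in WT. The groups were separate, but these arrays scattered more than those of any other of the 10 genes. The mean was 4.45 ± 0.36 in KO and 5.67 ± 0.41 in WT (SD, n = 3 each). KO minus WT was -1.23 log2 units with an SE of 0.25 (adjusted p = 0.0117 in limma). A second probe set (1452320_at) was tighter, at 3.89, 4.15 and 4.37 in KO and 5.27, 5.51 and 5.56 in WT, with a log2 change of -1.31 (adjusted p = 0.000971 over all probe sets in limma). The other one (1445901_at) was dim and averaged 3.18 ± 0.08 in KO and 3.18 ± 0.17 in WT (SD, n = 3 each), within the range of the chemosensory receptors in either genotype.

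Dab2 encodes the adaptor that links the cytoplasmic tails of megalin and its relatives to clathrin, and mouse embryos without it fail in visceral endoderm function. Its brightest probe set (1420498_a_at, gene on chromosome 15) read 4.37, 4.52 and 4.49 in KO and 6.07, 6.27 and 6.44 in WT. The closest KO and WT arrays were 1.55 units apart. The mean was 4.46 ± 0.08 in KO and 6.26 ± 0.18 in WT (SD, n = 3 each). KO minus WT was -1.80 log2 units with a standard error (SE) of 0.10, a 3.48-fold lower level (adjusted p = 9.84e-05 in limma). The KO means of Dab2 and Lrp2 lay between the 95th percentile and the highest of the chemosensory receptors, so background limits these folds as well. Of the other 3 probe sets, 1423805_at also passed, at 3.24 ± 0.06 in KO and 3.71 ± 0.06 in WT (SD, n = 3 each), a change of -0.47. The remaining probe sets gave -0.22 and -0.28 and did not pass, and none of these 3 averaged above 4.22 in either genotype. With the mean of its 4 probe sets in place of the brightest one, Dab2 changed by -0.69 and still passed the threshold.

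Srgn encodes serglycin, the core protein of proteoglycans stored in secretory granules, best known from blood cells and first cloned from a rat yolk sac tumour. Its 1 probe set (1417426_at, gene on chromosome 10) read 7.62, 7.64 and 7.59 in KO and 10.03, 9.92 and 10.04 in WT. It was the brightest of the 10 genes on this array and the one with the smallest error. KO minus WT was -2.38 log2 units with an SE of 0.05, a 5.20-fold lower level (adjusted p = 2.06e-05 in limma). The KO mean of 7.62 ± 0.02 (SD, n = 3) stayed above the whole chemosensory range, so here background does not limit the fold. Of 14 measured blood cell markers 1 was lower in KO and 0 were higher in limma, beside 17.5% of all genes lower and 12.5% higher. The lower one was Fcer1g, at 4.58 ± 0.07 in KO and 5.11 ± 0.25 in WT (SD, n = 3 each). At an unadjusted p under 0.05 in limma 2 were lower and 0 higher, and the added lower gene was Laptm5. Ptprc, which defines white blood cells, averaged 2.79 in KO and 2.83 in WT, at the level of the chemosensory receptors. Other markers of this list were brighter than the highest chemosensory receptor. Laptm5 averaged 8.58 in KO and 8.76 in WT, and Cd68 averaged 7.79 in KO and 7.79 in WT. Coro1a also lay above that receptor in either genotype. The summed level of the 14 markers was 9.72 to 9.81 in KO and 9.84 to 9.89 in WT on the log2 scale. Their part in the Srgn result was not tested.

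Pth1r encodes the receptor for parathyroid hormone and its related peptide, a signal that drives mouse primitive endoderm cells in culture towards parietal endoderm. Its 1 probe set (1417092_at, gene on chromosome 9) read 4.35, 4.37 and 4.19 in KO and 5.10, 5.18 and 5.05 in WT. The groups were separate, with 0.68 units between the closest arrays. The mean was 4.30 ± 0.09 in KO and 5.11 ± 0.06 in WT (SD, n = 3 each). KO minus WT was -0.81 log2 units with an SE of 0.07 (adjusted p = 0.000351 in limma). The KO mean again lay near the 95th percentile of the chemosensory receptors.

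**Figure D2:**
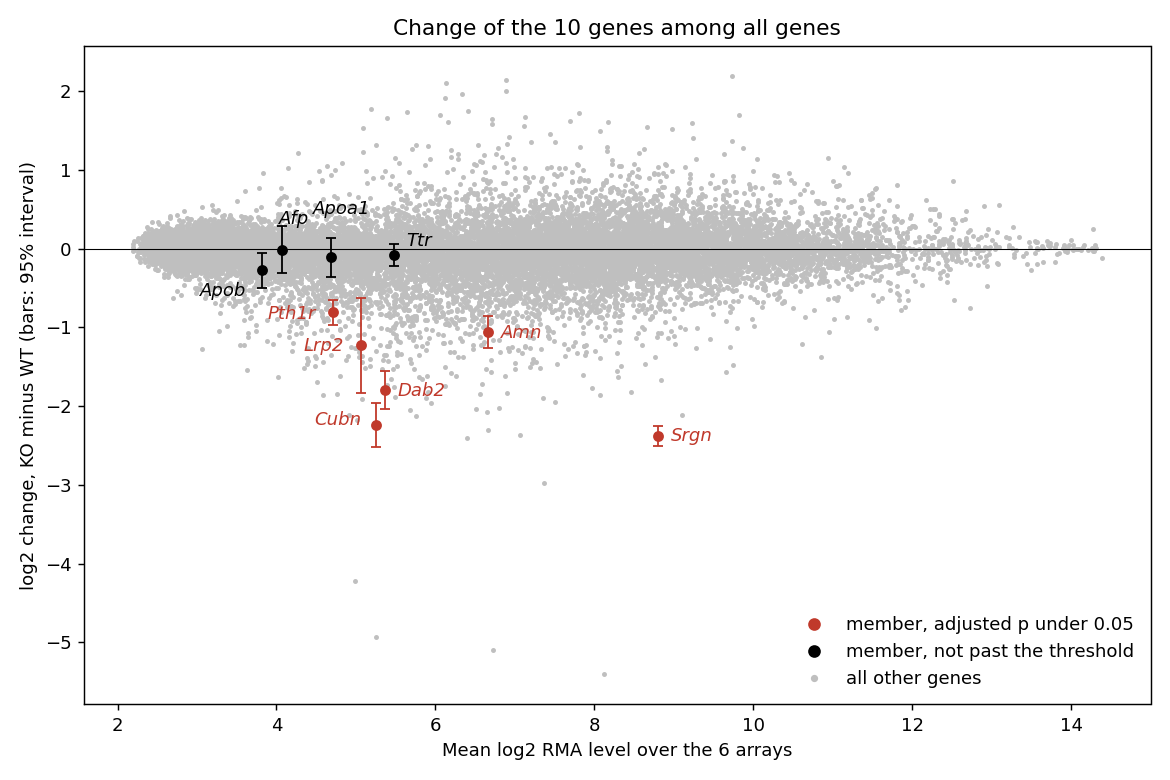
Log2 change, KO minus WT, against the mean log2 RMA level over the 6 arrays for all 18193 genes (grey), with the 10 genes marked and bars for their 95% interval from limma. The 6 genes in red passed the threshold, from Pth1r at -0.81 to Srgn at -2.38, and the 4 in black are secreted-product genes with mean levels of 5.48 or less. Cubn, Dab2, Lrp2 and Pth1r, in red, also had mean levels below 5.48.

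Among the 6 lower genes neighbouring intervals of the change overlapped. The 95% interval of the log2 change was -2.50 to -2.25 for Srgn and -2.52 to -1.96 for Cubn, and these overlap. It was -2.04 to -1.56 for Dab2. The intervals of Lrp2 (-1.83 to -0.62), Amn (-1.26 to -0.86) and Pth1r (-0.96 to -0.65) overlapped each other. For these 3 genes no order by size of change can be read. The KO means of Cubn, Dab2, Lrp2 and Pth1r (4.13, 4.46, 4.45 and 4.30) lay within the chemosensory range, where background limits a measured change, whereas that of Srgn lay above it. Their sizes therefore give no order against Srgn. In a two-sided exact permutation test each of the 6 had p = 0.1, the lowest that a design of 3 arrays per genotype can reach. Apob, which missed the threshold in limma, had the same p = 0.1 in that permutation test, so the test does not set the 6 apart from it.

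The secreted-product genes were dim in cells of either genotype. Ttr, the carrier of thyroxine and of the retinol-binding protein, was the brightest of the 4 (1451580_a_at, gene on chromosome 18). It read 5.45, 5.45 and 5.41 in KO and 5.54, 5.59 and 5.42 in WT. The groups overlapped, and the change of -0.08 had a 95% interval of -0.22 to 0.06 (adjusted p = 0.379 in limma). Of its other 3 probe sets 1 passed, 1454608_x_at, at 2.41 ± 0.06 in KO and 3.05 ± 0.17 in WT (SD, n = 3 each), near or below the chemosensory median in both. The remaining Ttr probe sets averaged at most 2.90 and did not pass.

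Afp encodes alpha-fetoprotein, the main serum protein of the fetus and a classical product of visceral endoderm. On its brightest probe set (1416646_at, gene on chromosome 5) it read 3.98, 3.98 and 4.25 in KO and 4.13, 4.26 and 3.85 in WT. The genotypes overlapped fully, with a change of -0.01 and a 95% interval of -0.31 to 0.29 (adjusted p = 0.962 in limma). Its other 4 probe sets averaged 2.29 to 2.72 in KO and 2.19 to 2.96 in WT, and none passed.

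Apob, the structural protein of the lipoproteins that visceral endoderm exports, read 3.72, 3.63 and 3.68 in KO and 3.75, 4.10 and 4.01 in WT on 1457554_at (gene on chromosome 12). The KO arrays lay below the WT arrays, the closest pair by only 0.03. The change of -0.27 missed the threshold (adjusted p = 0.0742 in limma), and without WT replicate 1 it was -0.37 and passed (adjusted p = 0.0121). Its other probe set (1455593_at) changed by -0.10 and did not pass. Apoa1, the main protein of high-density lipoprotein and a ligand of cubilin, read 4.64, 4.62 and 4.62 in KO and 4.94, 4.76 and 4.51 in WT on 1419233_x_at (gene on chromosome 9). These groups overlapped, with a change of -0.11 (adjusted p = 0.511 in limma). Its other 3 probe sets changed by 0.02 to 0.13, and none passed. Afp and Apob averaged 4.07 and 3.81 over all arrays, below the 95th percentile of the chemosensory receptors. At such levels background limits how large a fall the arrays could show. Ttr and Apoa1 averaged 5.48 and 4.68, above that percentile but below the highest chemosensory receptor. By the same measure the WT means of Lrp2 (5.67) and Pth1r (5.11) also lay below the highest chemosensory receptor, and the mean of Ttr over all arrays exceeded those of Cubn, Dab2, Lrp2 and Pth1r (5.25, 5.36, 5.06 and 4.71).

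**Figure D3:**
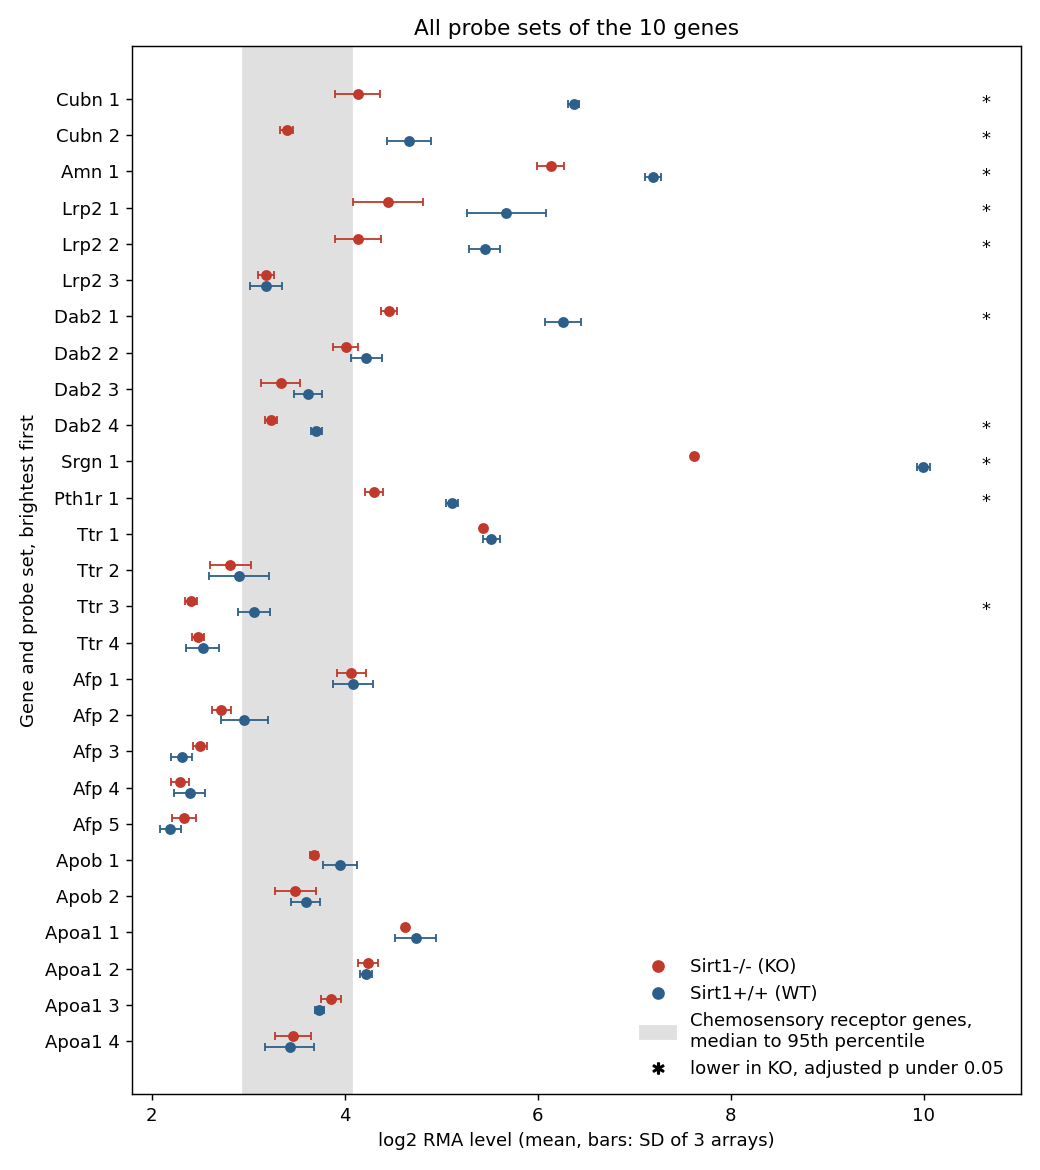
All 27 probe sets of the 10 genes, numbered by brightness within each gene, with mean log2 RMA level and SD of 3 KO and 3 WT arrays, and the grey band of chemosensory receptor genes (2.94 to 4.08). Asterisks mark probe sets lower in KO at an adjusted p under 0.05 over all probe sets: 9 of the 12 probe sets of Cubn, Amn, Lrp2, Dab2, Srgn and Pth1r, and 1 of the 15 of the secreted-product genes. For these counts genes were grouped by the call on their brightest probe set, so an asterisk on that probe set repeats the call.

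Over all probe sets 10 of the 27 were lower in KO, beside 10.3% of the 45037 tested, and 0 were higher, beside 9.46%. At an unadjusted p under 0.05 in limma 1 was higher, the dim Afp probe set 1436881_x_at. With the overlap of arrays as the measure, 7 of the 10 genes had all KO arrays below all WT arrays on the brightest probe set, beside 24.7% of all genes.

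RefSeq sequence upstream of the transcription start was available for 9 of the 10 genes, in 13 windows of 250 bases on build GRCm38.p6. Ttr was not used here. The windows were searched on both strands for a GATA motif (AGATAA), the core of an HNF1 motif (GTTAAT) and a SOX motif (AACAAT), letters bound by families of endoderm factors. AGATAA was in 0 of the 13 windows, AACAAT in 0 and GTTAAT in 2, beside 9.99%, 9.42% and 6.43% of 32851 such windows of all genes. A match or its absence describes these letters in this window and nothing about a factor. The windows below are those of Cubn, the uptake gene with the largest change, at chr2:13491877-13492126 on the minus strand, and of the pair with a match. That pair is Dab2, lower in KO, at chr15:6386498-6386747, and Afp, dim in either genotype, at chr5:90490464-90490713, each on the plus strand. Capitals mark GTTAAT, which begins 65 bases before the start in Dab2 and 105 bases before it in Afp.
Cubn: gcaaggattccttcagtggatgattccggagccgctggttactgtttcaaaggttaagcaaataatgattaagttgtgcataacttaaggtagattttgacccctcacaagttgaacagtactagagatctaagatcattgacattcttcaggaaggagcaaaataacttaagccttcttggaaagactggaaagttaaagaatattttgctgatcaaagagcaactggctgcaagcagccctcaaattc
Dab2: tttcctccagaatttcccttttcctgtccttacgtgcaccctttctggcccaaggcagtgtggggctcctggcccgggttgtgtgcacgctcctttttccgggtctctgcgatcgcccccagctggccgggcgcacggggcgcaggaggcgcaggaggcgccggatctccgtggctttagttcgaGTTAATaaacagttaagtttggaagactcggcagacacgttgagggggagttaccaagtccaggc
Afp: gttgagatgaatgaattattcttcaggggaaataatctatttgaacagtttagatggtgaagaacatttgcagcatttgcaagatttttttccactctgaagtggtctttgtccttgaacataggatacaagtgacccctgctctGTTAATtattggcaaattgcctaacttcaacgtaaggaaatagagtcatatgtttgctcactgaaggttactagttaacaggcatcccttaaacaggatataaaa

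Genes that work with these receptors changed in both directions. The counts of this list and of those that follow stand beside 17.5% of all genes lower and 12.5% higher. Of 24 measured endocytic partners 11 were lower and 5 higher in KO, with a median log2 change of -0.15. The largest falls were in Fcgrt, the recycling receptor for albumin and immunoglobulin, by 0.85, in Myo6, a motor that Dab2 recruits, by 0.80, and in Lrpap1, the chaperone that folds megalin, by 0.64. Lrpap1 averaged 9.97 ± 0.04 in KO and 10.61 ± 0.05 in WT (SD, n = 3 each). The endosomal chloride transporter Clcn5 fell by 0.36 and the clathrin heavy chain Cltc by 0.31. The lysosomal Clcn7 rose by 0.54 and the clathrin adaptor subunit Ap2m1 by 0.50. With arrays centred on their medians 9 of the 24 were lower.

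Of 12 other members of the LDL receptor family 4 were lower and 3 higher in KO, and the median change was 0.05. Vldlr, which binds triglyceride-rich lipoproteins, rose by 1.42, with values of 7.50, 7.68 and 7.73 in KO and 6.14, 6.17 and 6.34 in WT. Its relative Lrp8 rose by 0.64, and Lrp11 fell by 0.39. The 4 lower genes of this family changed by -0.39 to -0.19, beside -1.23 for Lrp2.

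Other genes for secreted proteins and lipoprotein assembly gave 6 lower and 2 higher of 21 measured, with a median change of -0.08. Ctsh, a lysosomal protease that marks visceral endoderm, read 5.47, 5.36 and 5.52 in KO and 7.10, 7.02 and 7.08 in WT. The difference was -1.62 log2 units (adjusted p = 3.84e-05 in limma). Mttp, which loads lipid onto the Apob protein, averaged 5.50 ± 0.10 in KO and 6.58 ± 0.06 in WT (SD, n = 3 each), a change of -1.08. Rbp4, the retinol carrier that travels with Ttr and is taken up by megalin, fell by 1.10. Apobec1, the enzyme that edits Apob RNA, rose by 0.64. The list held 13 genes that did not pass, among them the serum protein genes Alb, Fga, Fgb and Fgg, none of which averaged above 4.15. Other genes that did not pass were bright, such as the lipoprotein genes Apoe, with means of 11.70 in KO and 11.78 in WT, and Apoc1, with 10.48 in KO and 10.35 in WT.

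Of 8 measured genes of parathyroid hormone signalling 2 were lower and 1 higher in KO, near the shares over all genes, with a median of -0.03. The adenylyl cyclase Adcy9 fell by 0.72, the phosphodiesterase Pde4d by 0.70, and Gnas, the stimulatory G protein subunit, rose by 0.28.

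Some endoderm transcription factors and parietal endoderm genes were also lower in KO, while others did not pass or were higher. Of 13 measured endoderm factors 4 were lower and 0 higher in limma, 0 also at an unadjusted p under 0.05, with a median change of -0.17. Gata6, which starts the primitive endoderm programme, read 4.71, 4.85 and 5.14 in KO and 6.31, 6.17 and 6.23 in WT, with a log2 change of -1.33. Sox17 and Sox7, which act in the same lineage, fell by 0.78 and 0.65. The list also holds Otx2, which epiblast cells express too and which fell by 1.57. Gata4 changed by -0.17, Foxa2 by -0.30 and Hnf4a, a regulator of the serum protein genes, by -0.09, and these 3 did not pass (adjusted p = 0.146, 0.259 and 0.547 in limma). Their means were 4.16, 4.37 and 4.95 in KO and 4.33, 4.67 and 5.04 in WT. These lay between the 95th percentile (4.08) and the highest (5.84) of the chemosensory receptors, where background limits a measured fall. Sox17 and Sox7, which passed, also averaged within that range in either genotype. Of 19 parietal endoderm genes 10 were lower and 3 higher, with a median of -0.30. Pdgfra fell by 1.52, Col4a2 fell by 1.52 and Lama1 changed by -1.40, while the 3 higher genes were the filament genes Vim, Krt18 and Krt8. At an unadjusted p under 0.05 in limma 10 were lower and 4 higher. The added higher gene was Sparc, at 10.37 ± 0.02 in KO and 10.26 ± 0.03 in WT (SD, n = 3 each). The summed level of the 19 genes was 12.52 to 12.55 in KO and 12.65 to 12.69 in WT. Whether these genes and the uptake genes are lower in the same cells was not tested.

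**Figure D4:**
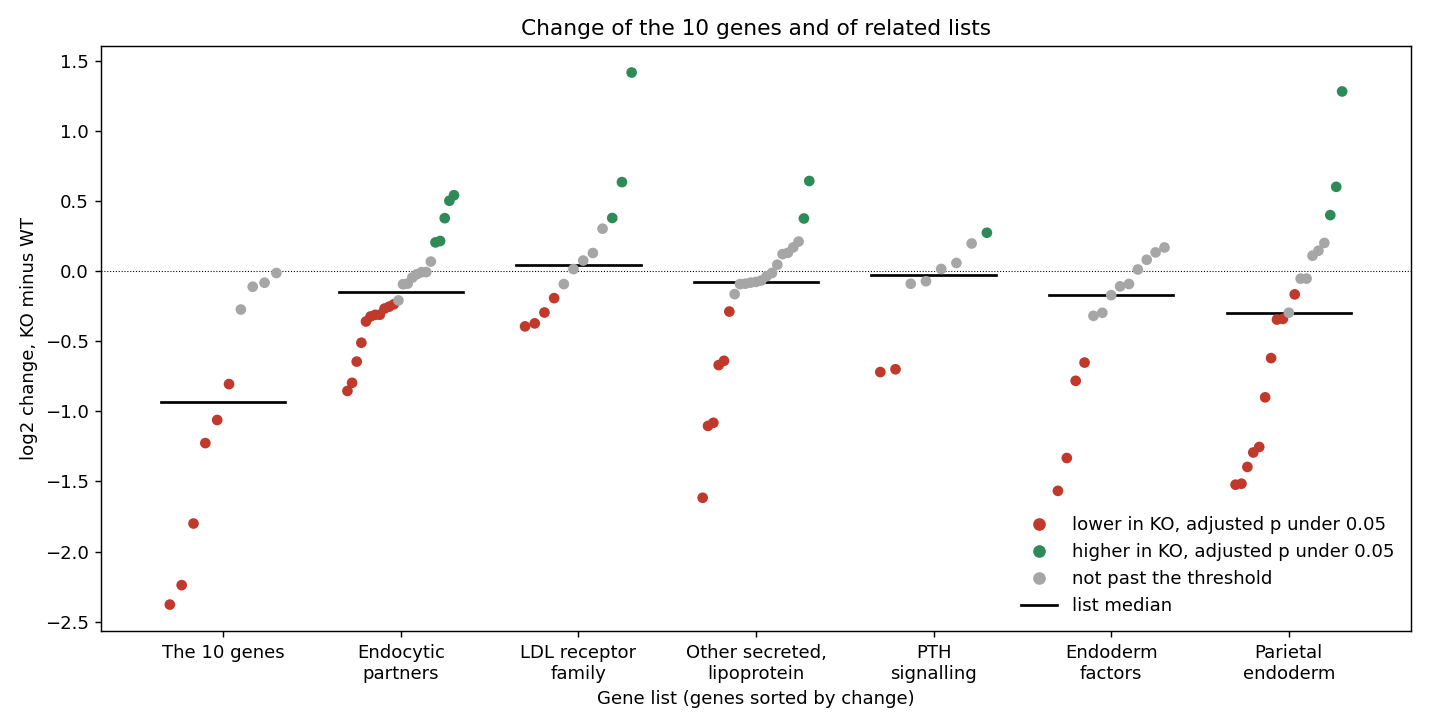
Log2 change, KO minus WT, of each measured gene in the group of 10 genes and in 6 related lists, sorted within each list, with colour for the limma call and a bar for the list median. The median of the 10 genes is -0.93, and those of the related lists lie between -0.30 and 0.05, with calls in both directions in every related list except the endoderm factors.

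Markers of other cells and of the stem cell state moved as follows. Of 15 measured fibroblast genes, which would report feeder cells, 3 were lower and 2 higher in KO, and their summed level was 12.14 to 12.19 in KO and 11.86 to 11.91 in WT. Fn1, which encodes fibronectin and is the brightest gene of this list, rose and averaged 12.04 ± 0.03 in KO and 11.69 ± 0.02 in WT (SD, n = 3 each), close to the sum itself. Twist1 rose by 0.48. Thy1 fell by 1.07, Col5a1 by 0.63 and Pdgfrb by 0.50. The collagen genes Col1a1, Col1a2 and Col3a1, which define fibroblasts, averaged at most 3.61 in either genotype, within the range of the chemosensory receptors. Of 12 pluripotent cell markers 7 were lower and 0 higher in limma, or 1 higher (Dppa4) at an unadjusted p under 0.05, with a summed level of 15.61 to 15.65 in KO and 15.87 to 15.90 in WT. The largest of these changes were Nanog at -0.90, Klf4 at -0.66 and Tdgf1 at -0.65. The part of these markers in the changes of the 10 genes was not tested.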

How the data were processed

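Per the submitters' processing notes, the authors used RMA in Partek 6.5. The log2 scale of the deposited values was judged from their range, and they were used unchanged. Of the other settings nothing is given in the sources used here. Of 45101 probe sets, 64 controls, 932 with several symbols and 9160 with none were left out. The array annotation named 34945 with 1 symbol, and each of 18193 genes was read on its brightest probe set with no filter. Chromosomes and promoter windows came from RefSeq on GRCm38.p6, with 18031 genes matched. The test of KO against WT arrays was limma 3.58.1 (R 4.3.3), two-sided, with Benjamini-Hochberg adjustment at 0.05. Summed levels are log2 of the sum of unlogged values. The number of arrays limits the precision. Members and lists were chosen with earlier results of these data known. Genes named are all members, Sirt1, 8 set markers and, for each list, up to 3 passing genes of largest change. Any further gene in the text was picked with its values in view. Like-numbered arrays showed little shared deviation (r = 0.05, -0.09 and 0.20 across genes), and samples were not paired. These values cannot settle whether samples were handled in pairs.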

Additional observations from a re-analysis of the deposited data

How the results depend on the processing

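The count of lower members stayed at 6 with repeated quantile normalisation, centred arrays, averaged probe sets, an intensity trend with robust variance, all probe sets and the replicate block. It was 6 to 7 when 1 array was left out in turn, 5 at an adjusted p under 0.01 (Lrp2 lost) and 4 in limma's treat against a 1.5-fold change (Lrp2 and Pth1r lost). It was 5 without the dimmest 40% of genes, a filter that removes Pth1r and also Afp, Apob and Apoa1, which were then not tested. No member was higher under any of these settings. Of all genes, 5462 changed, 4700 with the replicate block, 4096 to 4750 with 1 array left out, 3356 at an adjusted p under 0.01 and 363 in treat. Tested as probe sets, 8912 of 45037 changed, a count of probe sets and not of genes. Like numbers are not shown to mark shared handling. The change of Afp turned positive with centred arrays (0.00689), and with 1 array left out it lay between -0.1262 (without WT replicate 3) and 0.07634 (without WT replicate 2). It was positive without any array except KO replicate 3 and WT replicate 3. That of Apoa1 turned positive with averaged probe sets (0.01812). None of these passed the threshold, and the cause was not tested.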
